A study of Mus musculus with 28 samples.

Results

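Liver tumors of mice with an intact receptor for interleukin-17 were compared between an alcohol diet and chow. The tumors were chosen by their labels: the 7 libraries of FF tumors, 4 of the alcohol diet and 3 of chow, among 28 libraries in the series. FF mice carry floxed Il17ra alleles without Cre, on the C57BL/6 background. The other genotype of the series, dHEP, lost Il17ra in hepatocytes through albumin-driven Cre and served here as a second genotype for the same diet contrast. Every mouse of the series, chow controls included, received the liver carcinogen diethylnitrosamine (DEN, 25 mg/kg) at 2 weeks of age, so no group shows an untreated liver. The labelled feeding lasted 18 weeks. The labels describe the diet in one place as high-fat feed with alcohol and in another as liquid ethanol, so fat, alcohol and their combination cannot be told apart, and the labels give no sex. Tumors are named here by genotype and animal number. The alcohol tumors were, in the order used for values, FF-503 and FF-523, then FF-581 and FF-595, and the chow tumors FF-167, FF-168 and FF-169, so the animal numbers do not interleave and diet cannot be told apart from the cohort of mice either. Each library came from 1 tumor of 1 animal.

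Ethanol is oxidised in hepatocytes to acetaldehyde and then to acetate, and acetate must be activated to acetyl-CoA before it can feed fat or sterol synthesis. Sterol synthesis genes are controlled together by SREBP2, a membrane-bound transcription factor that is released when the endoplasmic reticulum is poor in sterol. The unfolded protein response raises chaperones of the same organelle when unfolded proteins build up, and tumors also hold lymphocytes, macrophages and vessels whose RNA adds to that of the tumor cells.

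The depth estimated from the smallest step of the deposited values was 11.1 to 15.1 M reads (M, 1000000) in the alcohol tumors (13.7 ± 1.88, SD, n = 4) and 16.6 to 17.8 M in the chow tumors (17.2 ± 0.636, n = 3), so the groups did not overlap in depth. Genes at 1 CPM (count per 1000000 reads) or more numbered 12236 to 12901 in these tumors. Genes of hepatocyte identity summed to 137191 to 171799 CPM per tumor, and each tumor correlated more closely with the other tumors of its group (Pearson r across genes 0.951 to 0.986) than with the non-tumor liver of its group (0.890 to 0.943). The chow tumor FF-168 lay farthest from its group, with r of 0.951. Male-biased liver genes summed to 492 CPM in FF-168 and to 1273 to 7513 CPM in the other FF tumors. Female-biased ones summed to 7830 CPM there and to 631 to 3913 CPM in the others. The labels give no sex, and a difference of sex was not tested.

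No gene of 13205 tested passed the threshold for a diet difference in FF tumors, a Benjamini-Hochberg adjusted p of 0.05 in limma on log2(CPM + 1), a called share of 0%. At an unadjusted p below 0.05, 608 genes (4.60%) were lower and 110 genes (0.833%) were higher on the alcohol diet, 5.44% in all. A difference below is always alcohol minus chow on the log2(CPM + 1) scale, which understates the change of low genes, and it is given with its standard error. Of the 13205 genes, 8705 had a negative and 4500 a positive difference, with a median of -0.10. All 4 alcohol tumors lay below all 3 chow tumors for 1205 genes (9.13%) and above them for 232 genes (1.76%). With libraries scaled to their median ratio, 5.49% lay below and 5.39% above without overlap, and 505 genes were lower and 353 higher at an unadjusted p below 0.05, so the split between lower and higher genes moved with the scaling. When libraries were weighted by how well they fitted their group, 26 genes passed the adjusted threshold, 25 of them lower and 1 higher, with adjusted p from 0.0376 to 0.0496. That weighting gave the chow tumor FF-168 a weight of 0.801 and the 6 other FF tumors weights of 1.40 to 1.92. The dHEP tumors in the same fit had weights of 0.355 to 0.855, apart from dHEP-549 at 1.58. Of the 26 genes, 6 belonged to the list of cholesterol synthesis (Cyp51, Fdft1, Nsdhl, Lss, Idi1 and Pmvk) and 3 to that of B and plasma cells (Jchain, Mzb1 and Pou2af1).

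Il17ra, the floxed gene (chr6:120463181-120483731, GRCm38.p6), stood at 33.9, 31.1, 20.9 and 27.9 CPM in the alcohol tumors and at 29.9, 20.8 and 30.1 CPM in the chow tumors. The groups overlapped, with 28.4 ± 5.60 CPM against 26.9 ± 5.36 CPM (difference 0.07 ± 0.36, limma adjusted p = 0.998). The 5 tested genes of the receptor and its adaptors had a median difference of 0.03. Il17a, the cytokine itself, was listed at 0 in all 7 tumors.

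The genes of cholesterol synthesis stood lower together on the alcohol diet. All 24 members of the list, all of them tested, had a negative difference, with a median of -1.41 against -0.10 over all genes. At an unadjusted p below 0.05, 19 of 24 were lower and 0 higher, against 4.60% and 0.833% of all genes, and 17 did not overlap between the groups (16 with median-ratio scaling), against 9.13%. No member passed the adjusted threshold. Summed over the list, the alcohol tumors held 2930, 3560, 4093 and 3395 CPM and the chow tumors 11424, 4756 and 7116 CPM. The chow tumor FF-167 was the highest of the 3 chow tumors in 24 of 24 members, and FF-168 the lowest in 22. Without FF-167 the list had 14 members at an unadjusted p below 0.05, and without FF-168 it had 23.

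Nsdhl (chrX:72918521-72958528), a demethylating step after lanosterol, had the smallest p of the list. It stood at 29.9, 44.2, 49.3 and 42.2 CPM on the alcohol diet and at 249, 81.0 and 131 CPM on chow. Each alcohol tumor was lower than each chow tumor, at a mean of 26.9% of the chow mean (difference -1.74 ± 0.34, limma adjusted p = 0.682). Fdft1, squalene synthase and the other member named by rank of p, stood at 54.8, 95.4, 72.9 and 86.1 CPM against 408, 148 and 229 CPM (difference -1.65 ± 0.35, adjusted p = 0.797). The genes named in the rest of this paragraph and the next were chosen after their values were seen. Hmgcs1 (chr13:119690351-119708260), which makes the precursor of mevalonate, stood at 212, 477, 275 and 267 CPM against 1611, 868 and 867 CPM. The groups did not overlap, and the alcohol mean of 308 ± 116 CPM was 27.6% of the chow mean of 1115 ± 429 CPM (difference -1.86 ± 0.45, adjusted p = 0.797). Idi1, which isomerises isopentenyl pyrophosphate, stood at 37.4, 84.0, 53.3 and 78.1 CPM against 458, 143 and 234 CPM (difference -2.03 ± 0.48).

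Other members of the path separated the groups too, and 7 of the 24 did not. Cyp51, which removes a methyl group from lanosterol, stood at 117, 203, 129 and 159.2 CPM against 843, 274 and 455 CPM, and Lss, which makes lanosterol, at 92.4, 109, 137 and 129 CPM against 641, 178 and 354 CPM. Srebf2, which encodes SREBP2, stood at 40.4, 42.4, 37.4 and 32.96 CPM against 72.8, 63.1 and 65.2 CPM, without overlap and with a narrow spread in both groups (38.3 ± 4.09 against 67.0 ± 5.09 CPM, difference -0.80 ± 0.28). Insig1, which holds SREBP in the endoplasmic reticulum, stood at 229.9, 233, 349 and 197 CPM against 626, 419 and 385 CPM, also without overlap (difference -0.92 ± 0.46).

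**Figure D1:**
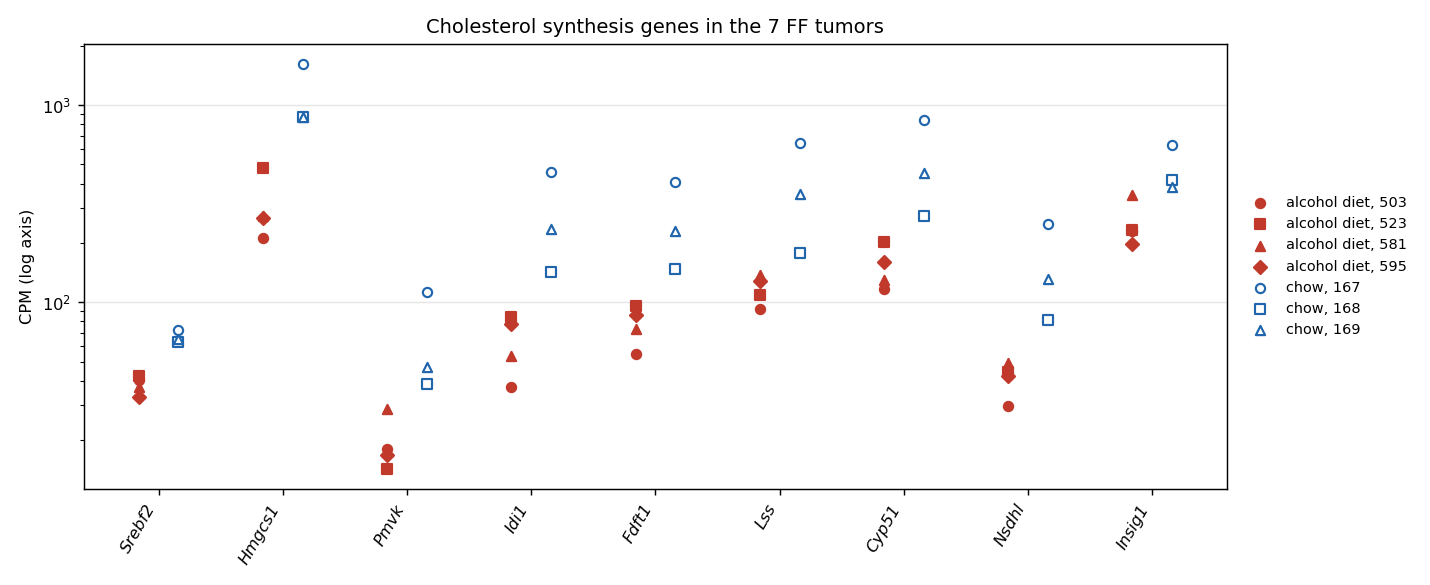
CPM (log axis) of the genes of cholesterol synthesis named in the text in each FF tumor, alcohol diet and chow, 1 point per library. Hmgcs1 runs from 212 to 477 CPM in the 4 alcohol tumors and from 867 to 1611 CPM in the 3 chow tumors, and the 7 members of the list that overlap are not shown.

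SREBP2 binds sterol regulatory elements in promoters of this pathway, with NF-Y at CCAAT boxes as a usual partner. The 250 bases before the gene start are shown for Hmgcs1 and Nsdhl because both genes separated the groups, on GRCm38.p6 as RefSeq gives the start and on the strand of the gene, which is the plus strand for both (chr13:119690101-119690350 and chrX:72918271-72918520). Capitals mark TCACNCCAC, a form of the sterol element, and CCAAT, searched on both strands, so that CCAAT on the other strand reads ATTGG. The motifs were chosen after the values were seen.
Hmgcs1: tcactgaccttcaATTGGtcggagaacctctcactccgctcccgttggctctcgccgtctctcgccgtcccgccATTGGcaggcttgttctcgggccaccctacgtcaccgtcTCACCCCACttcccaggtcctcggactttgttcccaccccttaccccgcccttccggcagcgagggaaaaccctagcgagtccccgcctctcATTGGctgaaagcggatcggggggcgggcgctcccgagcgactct
Nsdhl: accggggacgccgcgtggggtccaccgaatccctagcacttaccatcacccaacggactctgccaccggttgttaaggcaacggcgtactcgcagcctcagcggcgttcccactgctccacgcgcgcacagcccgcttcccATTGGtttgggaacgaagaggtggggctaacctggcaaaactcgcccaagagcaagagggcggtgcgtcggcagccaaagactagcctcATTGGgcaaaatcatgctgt
The sterol element began 137 bases before the start of Hmgcs1, among CCAAT boxes at 237, 176 and 45 bases. It was not in this window of Nsdhl, which held CCAAT at 109 and 20 bases before its start. The 16 members of the list with a listed promoter had 19 promoters. Of these 19, 1 held this form of the sterol element, which 1.05% of 32851 promoters of the same length hold. CCAAT lay in 16 of the 19, and 33.9% of the 32851 hold it.

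Genes that handle ethanol and its products did not all move in one direction. Of 13 tested genes, 3 were lower and 0 higher at an unadjusted p below 0.05, against 4.60% and 0.833% of all genes. Without overlap, 2 were lower, against 9.13%. The median difference was -0.21, with 9 negative and 4 positive differences. Acss1, the mitochondrial acetyl-CoA synthetase, had the smallest p of the list at 0.992, 1.25, 1.19 and 0.866 CPM against 2.10, 2.41 and 3.20 CPM (difference -0.78 ± 0.28, limma adjusted p = 0.841). Its cytosolic counterpart Acss2, which is also a target of SREBP, stood at 40.3, 38.8, 117 and 27.3 CPM against 399, 57.9 and 178 CPM. The alcohol tumor FF-581 overlapped the chow range, and the difference was -1.74 ± 0.63 (adjusted p = 0.841). The genes in the rest of this paragraph were chosen after their values were seen. Adh1, which oxidises ethanol, stood at 994, 1332, 1343 and 1687 CPM against 1363, 1915 and 1375 CPM. Aldh2, which oxidises acetaldehyde, overlapped as well, at 397, 434, 574 and 490.0 CPM against 731, 569 and 739.9 CPM. Cyp2e1, the ethanol-oxidising cytochrome of pericentral hepatocytes, stood at 714, 1112, 83.6 and 886 CPM against 683, 624 and 944 CPM. The low value of FF-581 set the sign of its difference, which was -0.58 ± 0.70 with that tumor and 0.27 without it.

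The same tumor was low in the whole pericentral group, genes that Wnt signalling keeps on around the central vein. The 14 genes of the list in the table summed to 268 CPM in the tumor FF-581, to 765 to 977 CPM in the other alcohol tumors and to 784 to 1368 CPM in the chow tumors. Of these, 13 were tested, and all 13 had a negative difference, with a median of -0.55, and 0 reached an unadjusted p below 0.05. Glul, glutamine synthetase, stood at 279, 347, 45.9 and 377 CPM against 167.2, 272 and 275 CPM. Apart from FF-581, every alcohol tumor lay above every chow tumor for Glul. The tumor FF-167 was the highest chow tumor in 9 of the 13 tested members and held the sum of 1368 CPM. The list was not counted with either of these tumors left out.

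Of the genes that store and burn fat, few passed an unadjusted p of 0.05. The 14 tested genes of lipid droplet proteins had 11 positive differences and a median of 0.31, with 0 at an unadjusted p below 0.05 in either direction. Cidec, which fuses droplets, stood at 44.1, 30.9, 34.1 and 60.3 CPM against 33.8, 9.26 and 7.37 CPM (difference 1.54 ± 0.76, limma adjusted p = 0.929). Only the chow tumor FF-167 reached the alcohol range. Fitm2, which helps droplets form, overlapped at 37.7, 49.1, 37.0 and 60.5 CPM against 32.3, 29.7 and 38.0 CPM (difference 0.43 ± 0.22, adjusted p = 0.946). The 20 genes of fatty acid and triglyceride synthesis had a median of -0.11, with 0 below an unadjusted p of 0.05. Fasn, fatty acid synthase, stood at 763, 477, 1762 and 661 CPM against 1159, 548 and 1073 CPM, and its sign changed when 1 library was left out.

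Of 27 genes of fatty acid oxidation and PPARa targets, 24 had a positive difference, with a median of 0.20. At an unadjusted p below 0.05, 1 was higher and 1 lower, against 0.833% and 4.60% of all genes. Without overlap, 5 were higher and 1 lower, against 1.76% and 9.13% of all genes, and with median-ratio scaling 6 were higher and 1 lower, against 5.39% and 5.49%. Acaa1b, a peroxisomal thiolase, stood at 299, 334, 369 and 329 CPM against 128, 145 and 215 CPM (difference 1.06 ± 0.35, limma adjusted p = 0.841). Pdk4, a kinase that inhibits pyruvate dehydrogenase, stood at 7.22, 5.06, 5.16 and 3.66 CPM against 10.99, 11.3 and 8.82 CPM (difference -0.88 ± 0.28, adjusted p = 0.840). Neither gene overlapped between the groups, and they lay in opposite directions within the list.

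Chaperones of the endoplasmic reticulum lay higher on the alcohol diet. Of 18 genes of the unfolded protein response, 17 had a positive difference, with a median of 0.42, and 5 were higher and 0 lower at an unadjusted p below 0.05, against 0.833% and 4.60% of all genes. Without overlap, 2 members were higher, and 7 were with median-ratio scaling, against backgrounds of 1.76% and 5.39%. The summed level was 10219, 8882, 6433 and 8996 CPM in the alcohol tumors and 7522, 5987 and 6014 CPM in the chow tumors, so the alcohol tumor FF-581 lay within the chow range. Without it, 10 members were higher at an unadjusted p below 0.05, and without the alcohol tumor FF-503, or without the chow tumor FF-168, 3 were.

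Dnajb9 (chr12:44205897-44210068), a cochaperone that represses the sensor IRE1, stood at 75.0, 87.9, 78.6 and 130.4 CPM against 46.6, 57.3 and 59.2 CPM. All alcohol tumors lay above all chow tumors (93.0 ± 25.6 against 54.4 ± 6.81 CPM, difference 0.74 ± 0.23, limma adjusted p = 0.840). Manf, a secreted protein released under this stress, stood at 179, 145, 93.2 and 170.3 CPM against 106, 76.1 and 86.2 CPM, with the tumor FF-581 in the chow range (difference 0.68 ± 0.24, adjusted p = 0.841). Hspa5 (chr2:34772090-34776529), which encodes the chaperone BiP and was chosen after its values were seen, stood at 2207, 1779, 1060.3 and 1991 CPM against 1085, 1065 and 949 CPM (difference 0.72 ± 0.27). Pdia6 (chr12:17266589-17284785), a disulfide isomerase chosen in the same way, stood at 785, 669, 645 and 602 CPM against 347, 420.4 and 478 CPM (difference 0.71 ± 0.26). It did not overlap between the groups, and Hspa5 overlapped through FF-581. The 11 tested targets of ATF4 and CHOP, which belong to another arm of the response, had a median of 0.01. Of them, 2 were lower and 0 higher at an unadjusted p below 0.05, against 4.60% and 0.833% of all genes. Among them Asns, asparagine synthetase, stood at 26.9, 8.80, 7.41 and 15.9 CPM against 159.5, 106 and 47.3 CPM (difference -2.74 ± 1.08, adjusted p = 0.863).

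The promoters of Hspa5 and Pdia6 are shown because both chaperones had diet differences of opposite sign in FF and dHEP tumors, with the values given after the other lists. Each run is the 250 bases before the RefSeq start on GRCm38.p6, both on the plus strand (chr2:34771840-34772089 and chr12:17266339-17266588). Capitals mark the endoplasmic reticulum stress element, CCAAT and CCACG separated by any 9 bases, searched on both strands after the values were seen. It begins with a CCAAT box.
Hspa5: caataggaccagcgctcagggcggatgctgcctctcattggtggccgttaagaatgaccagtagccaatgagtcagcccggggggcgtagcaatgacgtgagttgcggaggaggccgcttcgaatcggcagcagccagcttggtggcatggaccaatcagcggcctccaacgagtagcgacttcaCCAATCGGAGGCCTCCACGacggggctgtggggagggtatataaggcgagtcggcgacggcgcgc
Pdia6: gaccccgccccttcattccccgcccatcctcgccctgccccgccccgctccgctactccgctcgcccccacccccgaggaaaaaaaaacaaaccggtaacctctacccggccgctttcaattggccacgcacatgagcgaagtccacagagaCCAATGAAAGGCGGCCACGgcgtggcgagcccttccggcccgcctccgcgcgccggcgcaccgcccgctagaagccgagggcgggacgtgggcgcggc
The element lay 65 bases before the start of Hspa5 and 98 bases before that of Pdia6. Of 16 members of the list with a promoter, 8 held it, and 0.113% of all promoters did. A match is a description of the letters only.

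Genes of B and plasma cells lay far lower in the tumors on the alcohol diet. Summed over the 9 members of the list in the table, the alcohol tumors held 74.3, 15.8, 36.6 and 11.3 CPM and the chow tumors 613, 171 and 853 CPM, without overlap. Jchain made up most of each sum. The 8 other members held 8.30, 3.30, 6.02 and 3.26 CPM against 31.4, 11.95 and 57.7 CPM, also without overlap. In bulk RNA, fewer cells of a type and less RNA per cell cannot be told apart, here and in every cell type below. The filter on low values, 1 CPM in at least 3 libraries, passed 6 of the 9, and 1 of those passed with every alcohol tumor below 1 CPM. Of the 6, 6 were lower at an unadjusted p below 0.05 and 5 did not overlap (4 with median-ratio scaling), with a median difference of -1.88, beside shares of 4.60%, 9.13% and 5.49% over all genes. The members that passed include genes kept because the chow tumors were high, so these counts are a description.

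Pou2af1 (chr9:51213690-51240079), a coactivator of antibody genes, stood at 2.80, 0.366, 1.39 and 0.466 CPM against 13.3, 4.54 and 17.9 CPM (difference -2.47 ± 0.48, limma adjusted p = 0.682). Jchain (chr5:88519809-88527897), which joins IgA and IgM into polymers, stood at 66.0, 12.5, 30.6 and 7.99 CPM against 582, 158.7 and 796 CPM. Every alcohol tumor lay below every chow tumor, at a mean of 5.71% of the chow mean (29.3 ± 26.4 against 512 ± 324 CPM, difference -4.22 ± 0.92, adjusted p = 0.797). Mzb1, a plasma cell chaperone chosen after its values were seen, stood at 1.35, 0.586, 0.727 and 0.266 CPM against 6.14, 2.47 and 10.51 CPM (difference -1.96 ± 0.46). Irf4, a regulator of plasma and activated T cells that is in no list and was chosen in the same way, stood at 3.16, 1.61, 1.26 and 0.333 CPM against 24.0, 4.04 and 27.2 CPM (difference -2.67 ± 0.66). The chow tumor FF-168 was the lowest chow tumor for 5 of the 6 tested members of the list.

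Prg2 (chr2:84980461-84983632), the major basic protein of eosinophils, stood at low levels. It was listed at 0.180, 0.0733, 0.397 and 0.0666 CPM against 2.10, 1.63 and 4.47 CPM (difference -1.60 ± 0.28, limma adjusted p = 0.682). It passed the filter on low values only through the 3 FF chow tumors in which it was high, so its p, the smallest of all genes, comes from that selection and is a description.

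T and NK cell genes were higher in a pair of the chow tumors than in any alcohol tumor. The 18 members in the table summed to 13.0, 12.3, 9.76 and 4.38 CPM in the alcohol tumors and to 38.7, 13.1 and 83.4 CPM in the chow tumors, so the chow tumor FF-168 stood beside the highest alcohol tumor. Of the 18, 13 passed the filter on low values, 8 of them with every alcohol tumor below 1 CPM. Of the 13, 9 were lower at an unadjusted p below 0.05 and 7 did not overlap, 3 with median-ratio scaling, with a median difference of -1.29. The shares over all genes were 4.60%, 9.13% and 5.49%, and members kept through the chow tumors make these counts a description too. Without the chow tumor FF-169, 0 were lower at that threshold, and without FF-168, 10 were. Cd3d (chr9:44981769-44987052), a chain of the T cell receptor complex, stood at 0.361, 0.513, 0.331 and 0.200 CPM against 2.75, 0.617 and 5.13 CPM (difference -1.31 ± 0.42, limma adjusted p = 0.840). Pdcd1, the inhibitory receptor PD-1, stood at 0.361, 0.440, 0.265 and 0 CPM against 2.98, 0.393 and 6.46 CPM (difference -1.46 ± 0.47, adjusted p = 0.840). Pdcd1 overlapped through FF-168, whose Cd3d was also the lowest of the chow tumors.

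MHC class II genes, by which dendritic cells, macrophages and B cells present antigen, separated the groups in 7 of 7 members. The background is 9.13%, and 7 did so under median-ratio scaling as well. Their median difference was -1.01, with 1 member lower at an unadjusted p below 0.05, against 4.60% of all genes. Summed, the alcohol tumors held 399, 354, 274 and 242 CPM and the chow tumors 580.0, 587 and 1025 CPM. Cd74, the invariant chain, stood at 163.8, 144, 128 and 109.8 CPM against 293, 264 and 502.6 CPM (difference -1.32 ± 0.55, limma adjusted p = 0.892). H2-Aa, a class II alpha chain, stood at 92.1, 81.6, 63.2 and 56.1 CPM against 111, 142 and 189.6 CPM (difference -0.995 ± 0.477, adjusted p = 0.929).

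**Figure D2:**
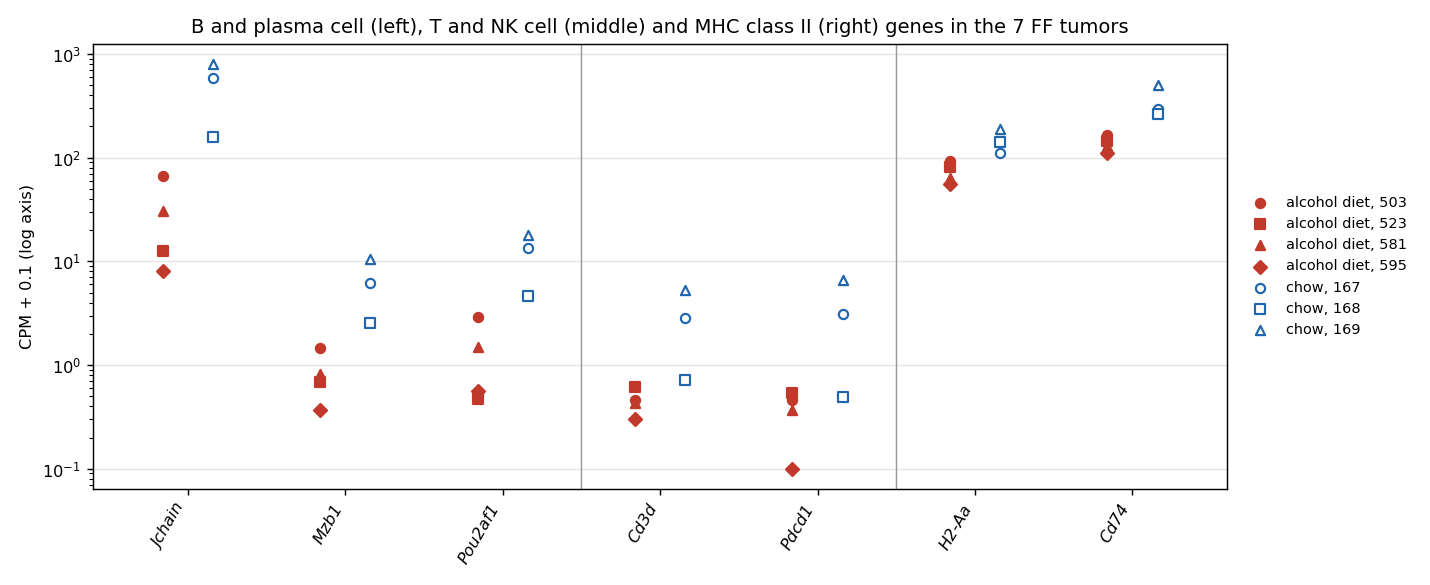
CPM + 0.1 (log axis) of the genes named in the text of B and plasma cells, T cells and antigen presentation in each FF tumor, 1 point per library. Jchain runs from 7.99 to 66.0 CPM on the alcohol diet and from 158.7 to 796 CPM on chow, and the chow tumor FF-168 lies nearest to the alcohol tumors in Jchain and Cd3d.

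Other genes of the tumor stroma and of immune signalling separated less. Of 20 interferon response genes, 2 were lower and 0 higher at an unadjusted p below 0.05, against 4.60% and 0.833% of all genes. Their median was -0.15. Cxcl9 (chr5:92321331-92328079), a chemokine for T cells, stood at 32.3, 37.0, 26.9 and 15.98 CPM against 224, 50.9 and 251 CPM (difference -2.36 ± 0.75, limma adjusted p = 0.840). Gbp2, a guanylate-binding protein, stood at 11.6, 19.97, 9.39 and 8.24 CPM against 28.03, 22.4 and 43.7 CPM (difference -1.31 ± 0.59, adjusted p = 0.911). Both lay lower in all 4 alcohol tumors. The 12 Kupffer cell genes had a median of -0.41 with 0 below an unadjusted p of 0.05. The 15 genes of recruited macrophages and monocytes had one of -0.51 with 1 lower, against 4.60% of all genes, and the 4 neutrophil genes one of -0.43. The 13 tested genes induced by interleukin-17 and NF-kB had a median of -0.21 with 0 below an unadjusted p of 0.05. Of 15 endothelial genes, 3 were lower, against 4.60% of all genes, with a median of -0.25. Cdh5, the vascular cadherin, stood at 48.3, 43.9, 60.4 and 51.2 CPM against 70.5, 106 and 68.1 CPM (difference -0.65 ± 0.18, adjusted p = 0.804). Esm1 (chr13:113209659-113218104), a proteoglycan of sprouting vessel tips chosen after its values were seen, stood at 11.5, 13.9, 14.7 and 17.0 CPM against 35.4, 54.6 and 37.0 CPM (difference -1.49 ± 0.30, adjusted p = 0.682). Its alcohol mean was 33.7% of its chow mean, without overlap.

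Of 31 genes of the cell cycle, 30 had a negative difference, as had 8705 of all 13205 genes. Their median was -0.68, and 1 was lower at an unadjusted p below 0.05, against 4.60% of all genes. Summed, they stood at 445, 454, 349 and 198 CPM against 749, 576 and 384 CPM, and the groups overlapped through the chow tumor FF-169. Aurkb, a mitotic kinase, stood at 3.43, 4.25, 2.31 and 0.932 CPM against 6.25, 6.28 and 4.53 CPM (difference -0.93 ± 0.42, limma adjusted p = 0.911). Cenpe, a kinetochore motor, stood at 10.1, 8.50, 7.47 and 2.66 CPM against 20.9, 14.9 and 9.48 CPM (difference -1.02 ± 0.50). Mki67, chosen after its values were seen, overlapped at 91.6, 91.1, 66.5 and 22.6 CPM against 168.1, 108 and 70.1 CPM.

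Markers of the tumors themselves varied widely within the groups. The 17 oncofetal and tumor markers had a median difference of -0.23, with 0 below an unadjusted p of 0.05 in either direction. Afp, the fetal serum protein, stood at 221, 133, 143 and 502 CPM against 386, 1448 and 133 CPM. Igf2, a fetal growth factor, stood at 1.26, 7.99, 0.331 and 0.466 CPM against 0.0585, 452 and 0.725 CPM. Tff3, a secreted trefoil peptide, stood at 35.1, 17.5, 6.35 and 65.1 CPM against 33.1, 936 and 89.8 CPM, so the chow tumor FF-168 was the highest of the 7 for all 3 genes. That tumor also held 1280.0 CPM of red blood cell genes against 159.3 to 328 CPM in the 6 others. Lgr5, a Wnt target, was high in another chow tumor, FF-167, at 40.5 CPM against 0.595 to 5.68 CPM in the rest. Afp, Igf2 and Lgr5 were chosen after their values were seen.

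Clock genes lay at different levels by diet, and in CPM none separated the groups. Of 16 genes, 2 were lower and 4 higher at an unadjusted p below 0.05, against 4.60% and 0.833% of all genes. Without overlap there were 0, against 9.13% lower and 1.76% higher of all genes. With median-ratio scaling 1 was higher without overlap, against 5.39%. Arntl (chr7:113178471-113314126), which encodes the activator BMAL1, stood at 21.9, 4.84, 5.03 and 1.93 CPM against 28.3, 53.8 and 10.8 CPM (difference -1.93 ± 0.68, limma adjusted p = 0.841). Per2 (chr1:91415977-91459351), a repressor of the same loop, stood at 18.0, 35.9, 44.0 and 52.6 CPM against 9.70, 8.42 and 26.2 CPM (difference 1.37 ± 0.43, adjusted p = 0.840). Dbp, an output gene chosen after its values were seen, stood at 11.8, 71.9, 109 and 61.2 CPM against 12.9, 1.37 and 52.2 CPM. The alcohol tumor FF-503 lay in the chow range for all 3 genes and the chow tumor FF-169 nearest to the alcohol tumors. Without FF-169, 11 clock genes were at an unadjusted p below 0.05, and without FF-168, 1 was. The labels give no time of day, so time of collection cannot be told apart from diet.

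**Figure D3:**
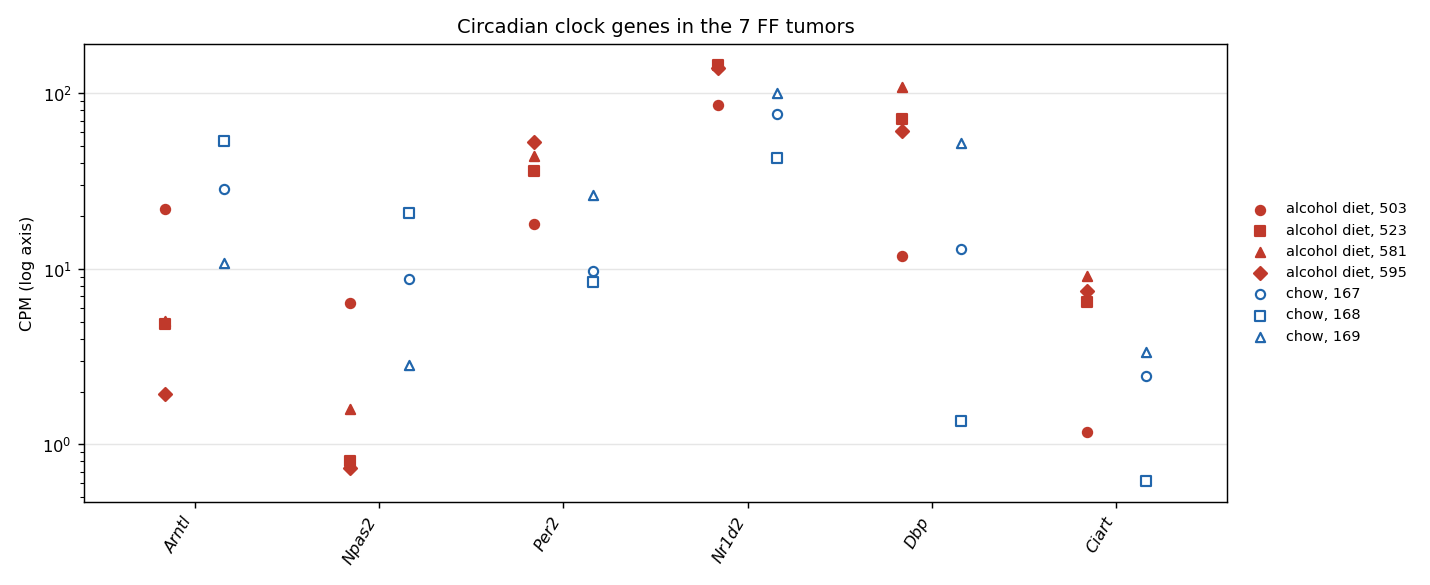
CPM (log axis) of clock genes named in the text or the closing section in each FF tumor, 1 point per library. Arntl and Per2 lie on opposite sides, and the alcohol tumor FF-503 lies with the chow tumors, at 21.9 CPM of Arntl and 18.0 CPM of Per2.

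BMAL1 and its partners bind the E-box CACGTG. The 250 bases before the RefSeq start of Ciart, a repressor of the clock, are shown because they hold several of these motifs (chr3:95882229-95882478, GRCm38.p6, minus strand). Ciart stood at 1.17, 6.45, 9.13 and 7.46 CPM against 2.46, 0.617 and 3.38 CPM (difference 1.07 ± 0.55), and it was chosen after its values were seen, as was the motif. Capitals mark CACGTG, which reads the same on both strands.
Ciart: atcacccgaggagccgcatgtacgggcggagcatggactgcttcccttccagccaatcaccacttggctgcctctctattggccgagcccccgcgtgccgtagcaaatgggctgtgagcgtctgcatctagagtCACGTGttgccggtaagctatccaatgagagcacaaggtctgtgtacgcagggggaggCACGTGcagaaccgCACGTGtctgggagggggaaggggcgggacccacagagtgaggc
The motifs began 116, 58 and 44 bases before the start. The 14 members of the list with a promoter had 19 promoters. Of these, 6 held the motif, from 5 genes, and 6.02% of all promoters did. TAGGTCA, the element of the receptors that repress Arntl, was searched on both strands as well and lay in 0 of the 19, against 2.23% of all promoters.

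Of the remaining lists, those of hypoxia and glycolysis held the most lower members. Of 9 hypoxia targets, 3 were lower at an unadjusted p below 0.05, against 4.60% of all genes, with a median of -0.38. Ndrg1, a hypoxia target, stood at 9.02, 8.87, 4.08 and 7.12 CPM against 16.5, 14.8 and 14.9 CPM (difference -1.03 ± 0.37). Of 24 genes of glycolysis and gluconeogenesis, 3 were lower, against the same 4.60%, with a median of -0.50. Among them was Aldoc, an aldolase, at 5.41, 5.79, 10.4 and 11.1 CPM against 32.7, 10.7 and 30.1 CPM (difference -1.39 ± 0.38). The 25 genes of matrix and stellate cells had a median of -0.50, with 1 higher, against 0.833% of all genes. The 21 NRF2 targets had one of -0.54, with 1 lower, against 4.60%. In the hypoxia, glycolysis, matrix and NRF2 lists the chow tumor FF-168 had the highest sum of the FF tumors. Glycolysis genes summed to 12714 CPM there, against 5223 and 6517 CPM in the other chow tumors. The alcohol tumors held 6227 to 8239 CPM. Matrix genes summed to 1905 CPM there and to 829 CPM in FF-169, below every alcohol tumor (878 to 974 CPM). These lists were not counted with FF-168 left out. The 19 genes of hepatocyte identity had a median of -0.05, the 20 acute phase proteins one of 0.33 and the 26 respiratory chain subunits one of -0.14. Tppp (chr13:74009419-74035753), a tubulin-binding protein outside every list that was chosen after its values were seen, stood at 25.6, 19.7, 13.0 and 11.2 CPM against 2.98, 5.95 and 3.20 CPM. It lay higher in all 4 alcohol tumors (difference 1.84 ± 0.45, limma adjusted p = 0.797).

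**Figure D4:**
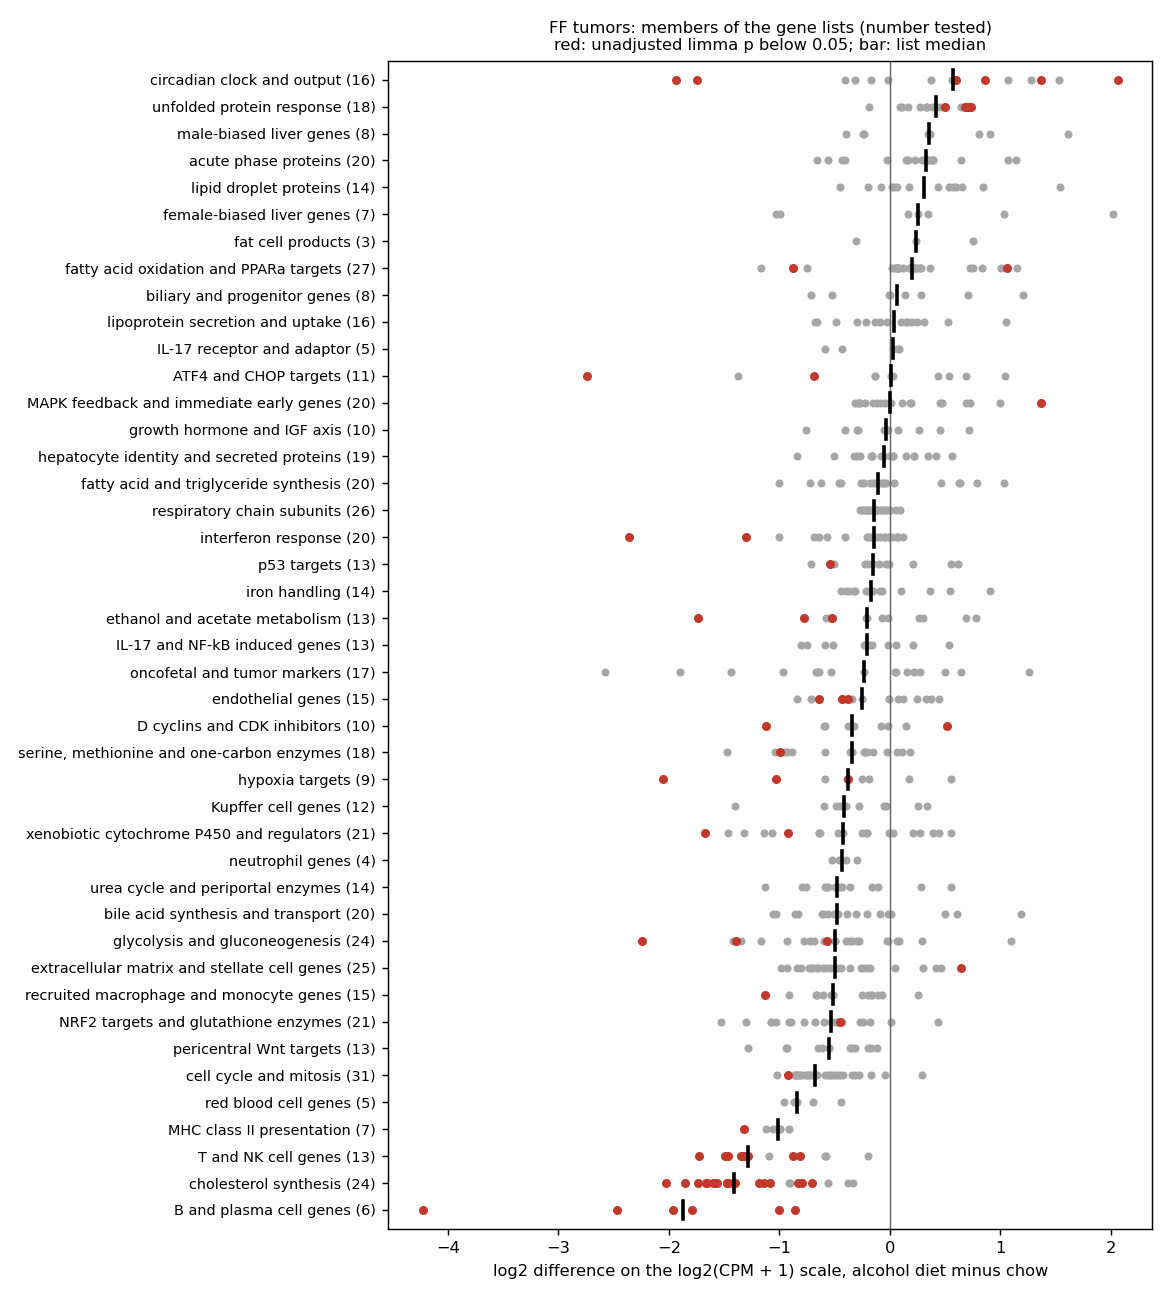
Difference between diets in FF tumors (x axis, log2 scale of CPM + 1, alcohol minus chow) of each tested member of the gene lists (y axis), with list medians as bars and unadjusted p below 0.05 in red. The median of cholesterol synthesis lies at -1.41 and that of the unfolded protein response at 0.42, against -0.10 over all genes.

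The diet differences were set beside those of dHEP tumors, whose hepatocytes lack Il17ra. The difference between the 2 genotypes' diet effects, tested as an interaction over the 14 tumors, passed the adjusted threshold for 0 genes (0%), and 653 genes (4.95%) were at an unadjusted p below 0.05, 310 of them lower (2.35%) and 343 higher (2.60%) in FF. In a fit of all 28 libraries, 19 genes passed. Of 18 genes of the unfolded protein response, 11 were at an unadjusted p below 0.05 and higher in FF, with a median of 0.83 for the difference between genotypes. With each FF tumor left out in turn the count ran from 8 to 13, and it was 10 without dHEP-549, a dHEP tumor that correlated with non-tumor liver (r 0.962) nearly as closely as with the other tumors of its group (r 0.970). Dnajb9 had the smallest p. It stood at 42.7 to 78.5 CPM in dHEP alcohol tumors and at 94.6 to 115 CPM in dHEP chow tumors, a diet difference of -0.93 ± 0.23 against 0.74 ± 0.23 in FF tumors (difference between them 1.67 ± 0.32, limma adjusted p = 0.642). Hspa5 stood at 806 to 1178 CPM against 1403 to 2542 CPM in dHEP tumors, and its effects differed by 1.62 ± 0.38 (adjusted p = 0.642). Pdia6 stood at 267 to 587 CPM against 433 to 729 CPM in dHEP tumors, which overlapped, a diet difference of -0.58 ± 0.26 that differed from that in FF tumors by 1.29 ± 0.37 (adjusted p = 0.797). The median of the list was -0.46 in dHEP tumors and 0.42 in FF tumors. Other lists also held members at an unadjusted p below 0.05 for the interaction. Of 13 pericentral genes, 5 were lower in FF at that threshold, with a median of -1.40 for the difference. The same held for 7 of 27 genes of fatty acid oxidation and 4 of 20 of bile acid synthesis and transport. In each of these lists 0 were higher, and 2.35% of all genes were lower. These lists were not counted with a tumor left out. The pericentral genes summed to 268 CPM in FF-581, the lowest of the FF tumors, and to 1368 CPM in FF-167, the highest. Ranked by p, Rrbp1, Gtf2b and the smooth muscle actin gene Acta2 were among those after Dnajb9 as higher in FF, and Por, Nr1i3, Cyp4f15, Abhd15 and Hsd3b2 led as lower, none of them past the adjusted threshold in the fit of the 14 tumors. Of these, Rrbp1, Cyp4f15, Abhd15, Nr1i3 and Acta2 were among the 19 genes that passed in the fit of all 28 libraries, with limma adjusted p from 0.0305 to 0.0448. Por, which passes electrons to cytochromes P450, had effects that differed by -1.68, and Nr1i3, the xenobiotic receptor CAR, by -3.43 ± 0.80.

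Of the 24 sterol genes, 0 were at an unadjusted p below 0.05 for the interaction, and the medians were -1.41 in FF and -1.05 in dHEP tumors. Without FF-168, 3 were lower in FF, and without FF-503 or without FF-167, 1 was higher. The B and plasma cell genes had medians of -1.88 and -0.75, with 2 of 6 lower in FF at an unadjusted p below 0.05 (0 without FF-167 or without FF-169, 4 without FF-168). The T and NK cell genes had medians of -1.29 and -0.57, with 0 of 13 (2 of 12 lower in FF without FF-168). The MHC class II genes had medians of -1.01 and -0.42, with 0 of 7. A p that misses the threshold does not show that the genotypes respond alike.

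Non-tumor liver of FF mice gave the third view, with the alcohol livers from the same 4 animals as the tumors and the chow livers from other animals, FF-157 to FF-159. The diet effect in tumors minus that in non-tumor liver passed the adjusted threshold for 0 of 13503 genes, and 801 (5.93%) were at an unadjusted p below 0.05, 716 of them lower (5.30%) and 85 higher (0.629%) in tumors. With library quality weights 144 genes passed, 143 lower and 1 higher, among them Pou2af1 (limma adjusted p = 0.00694), Esm1 (0.0219), Cidea (0.0341), Cfd (0.0345), Jchain (0.0369) and Cd3d (0.0372). The effect was lower in tumors at an unadjusted p below 0.05 for 9 of 13 T and NK cell genes, 5 of 6 B and plasma cell genes and 4 of 7 MHC class II genes, and their medians in non-tumor liver were 0.02, -0.07 and 0.45. As above, 8 of the 13 T and NK cell genes were below 1 CPM in every alcohol tumor and were tested because they were higher elsewhere, so these counts are a description. The T and NK cell count rested on the chow tumor FF-169, without which it was 0, and was 4 without FF-595 and 11 without FF-168. Without FF-169 the B and plasma cell count was 4 and the MHC class II count 2. Jchain stood at 7.02 ± 4.39 CPM in alcohol and 13.8 ± 4.19 CPM in chow non-tumor liver, far below the 158.7 to 796 CPM of the chow tumors, and its effects differed by -3.04 ± 1.13. Pou2af1 had effects that differed by -2.43 ± 0.53 (limma adjusted p = 0.461). Esm1 stood at 4.04 ± 3.73 and 1.34 ± 0.702 CPM in non-tumor liver, and its effects differed by -2.36 ± 0.55.

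The sterol genes had negative medians in both tissues, with one of -0.89 in non-tumor liver, and 1 of 24 differed between the tissues at an unadjusted p below 0.05. At an unadjusted p below 0.05, 6 of the 31 cell cycle genes had a lower effect in tumors, against 5.30% of all genes. Their medians were -0.68 in tumors and 0.40 in non-tumor liver. Of the 25 matrix genes 9 had a lower effect, with medians of -0.50 and 0.38. Neither list was counted with a tumor left out. FF-167 was the highest chow tumor in 22 of the 31 cell cycle genes. Matrix genes summed to 1263, 1905 and 829 CPM in the chow tumors and to 878 to 974 CPM in the alcohol tumors. Clock genes gave 0 differences, with medians of 0.57 and 0.44. Per2 stood at 36.1 ± 12.9 against 10.7 ± 3.11 CPM and Arntl at 4.87 ± 2.72 against 19.9 ± 11.7 CPM in non-tumor liver. The fat-linked genes Cfd and Cidea also had a lower effect in tumors, through a higher level on the alcohol diet in non-tumor liver. Cfd, the protease adipsin, stood at 62.2 ± 34.9 against 1.93 ± 2.22 CPM in non-tumor liver and at 1.24 ± 1.197 against 0.196 ± 0.0956 CPM in tumors, and its effects differed by -3.76 ± 0.80 (limma adjusted p = 0.461). Cidea, a droplet protein, stood at 20.1 ± 14.5 against 0.655 ± 0.5004 CPM in non-tumor liver and overlapped in tumors at 0.992, 1.76, 1.26 and 0.666 CPM against 1.81, 2.69 and 0.423 CPM. Within non-tumor liver these were the 2 genes of 13503 called for diet (0.0148%), with limma adjusted p of 0.000486 and 0.0436. In the other direction Dlgap1, Prps1, Zfp182 and Rdh16f2 were among the first by p, none past the adjusted threshold, though Zfp182 passed with quality weights (1.301, limma adjusted p = 0.0352).

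**Figure D5:**
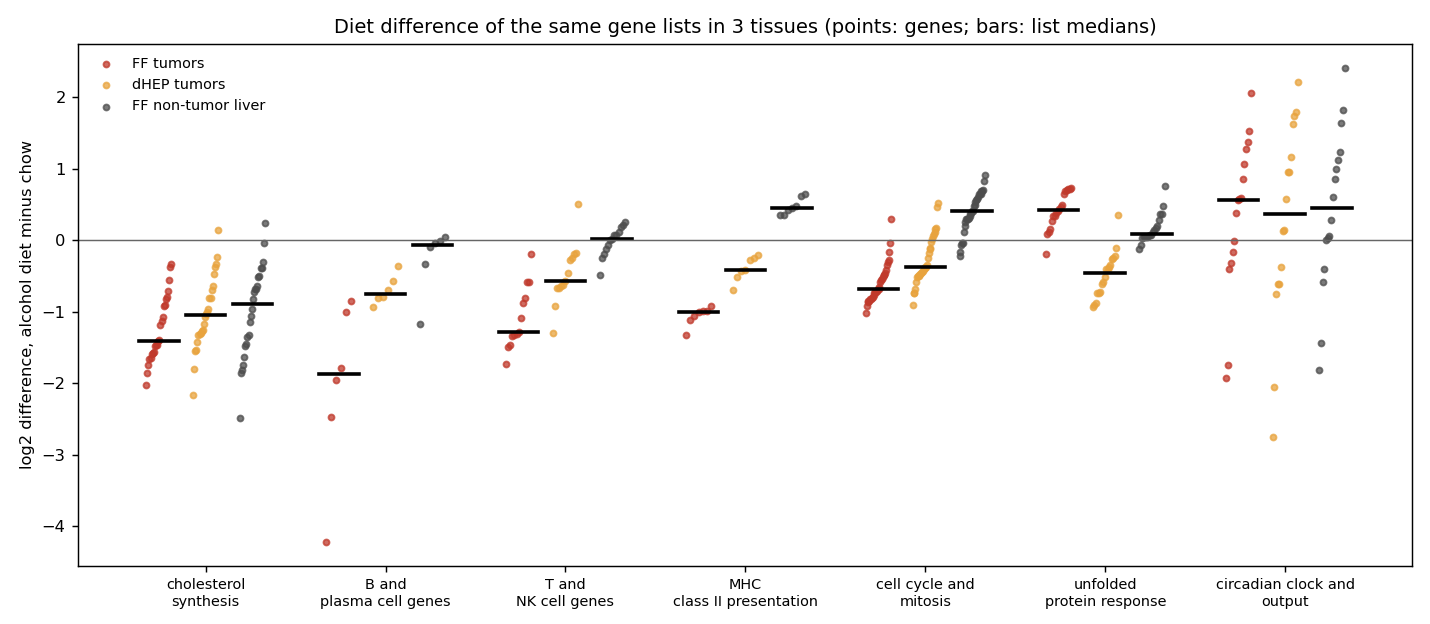
Difference between diets (y axis, log2 scale of CPM + 1, alcohol minus chow) of the same gene lists in FF tumors, dHEP tumors and FF non-tumor liver, with points for genes and bars for list medians. The sterol list lies low in all 3, at -1.41, -1.05 and -0.89, and the B and plasma cell list at -1.88, -0.75 and -0.07.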

How the data were processed

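RNA sequencing of mouse liver tumors was re-analysed from the deposited gene table. The values are CPM, which the authors made, per the submitters' processing notes, with the aligner STAR 2.5.1a, the quantifier RSEM 1.3.0 and the build GRCm38, for 22187 genes whose columns each sum to 1000000. Per the labels the molecule was polyA RNA, yet the kit named is one for stranded total RNA. Symbols matched 21653 gene IDs, and the other 534 held at most 0.166% of a library. Of low values in the FF tumors (up to 20 reads), 85.3% to 86.3% were whole reads within 0.1 read, so no count model was used; depth, estimated from the smallest step, is in the report and limits low genes.

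Groups came from the titles. Genes had to reach 1 CPM in 3 or more libraries of a fit. Tests used log2(CPM + 1) in limma 3.58.1 (R 4.3.3, empirical Bayes with trend) over the 14 tumors (13205 genes, 10 residual degrees of freedom) or, against non-tumor liver, all 28 libraries. Genes were called at a Benjamini-Hochberg adjusted p of 0.05 over all genes. CPM are means ± SD and log2 differences ± standard error. The comparisons with dHEP tumors and non-tumor liver share the FF tumors, so their values are set side by side. The scripts were tested on simulated data.

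The comparison, the 44 gene lists (701 entries, 6 genes not analysed here) and the alternatives were chosen with earlier results of these data known. Named by rule were the 2 members of smallest p in a list, since none was called, Il17ra, and the 5 genes of smallest p in each direction of an interaction, leaving out genes under 5 CPM in the higher group and unnamed transcripts; other named genes were chosen after their values were seen. Promoters came from RefSeq on GRCm38.p6. Alternatives changed the filter, pseudocount, scaling, weights, fitted libraries and each FF tumor left out; leaving out dHEP-549, and the list counts of the interactions with a tumor left out, were added after seeing the data. Some genes that the rule would name are not reported here.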

Additional observations from a re-analysis of the deposited data

Results flagged for a closer look

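In the alcohol tumors, 1 library stood far from the other 3 for 7 of the 79 genes checked, by Dixon's test in a group of 4; chance alone marks about 1 in 20 groups, and groups of 3 were not tested. The tumor FF-503 stood apart in 3 clock genes, nearer to the chow tumors. Arntl was at 21.9 CPM there against 1.93 to 5.03 CPM in the others, Npas2, its partner gene, at 6.40 CPM against 0.732 to 1.59 CPM, and Nr1d2, a repressor of Arntl, at 85.7 CPM against 139.5 to 145 CPM.

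The tumor FF-581 stood apart in another 3 genes. Acss2, which activates acetate, was at 117 CPM there against 27.3 to 40.3 CPM. Col4a2, a basement membrane collagen, was at 153 CPM against 67.7 to 70.0 CPM, and Slpi, a protease inhibitor, at 24.7 CPM against 16.3 to 17.3 CPM. Igf2 was at 7.99 CPM in the tumor FF-523 against 0.331 to 1.26 CPM, and at 452 CPM in the chow tumor FF-168.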

How the results depend on the processing

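Counts of genes at an unadjusted p below 0.05 in FF tumors moved with the settings. The 110 higher genes became 1.7e+02 with no filter (rounded, 0.906% of the 18552 genes then tested), 353 with median-ratio scaling, 288 with library quality weights and 231 in a fit of the 7 FF tumors alone. The 608 lower genes became 338 with a filter of 5 CPM on the mean, 1277 with quality weights and 1237 in the fit of the 7. With that stricter filter 1 B and plasma cell gene and 0 T and NK cell genes were lower, because few of their members reach it, and median-ratio scaling gave 9 higher genes of the unfolded protein response. Quality weights called 1 gene higher and 25 lower; the cause was not tested.

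With each of the 7 FF tumors left out in turn, 0 genes were called, 54 (without FF-523) to 135 (without FF-581) were higher and 402 (without FF-595) to 529 (without FF-503) lower. The list counts ran from 14 to 23 for cholesterol synthesis, 4 (without FF-169) to 6 for B and plasma cells, 0 to 10 for T and NK cells (5 without FF-595), 3 to 10 for the unfolded protein response and 1 to 11 for the clock. The interaction with dHEP ran from 507 to 639 genes at an unadjusted p below 0.05. A fit of all 28 libraries gave 1257, with 19 called, 10 higher and 9 lower. The interaction with non-tumor liver ran from 678 to 842, with 0 to 1 called, the 1 without the chow tumor FF-168. It gave 420 with the 5 CPM filter and 2067 with quality weights, which called 1 gene higher and 143 lower, 144 in all.

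Of 1086 values of 79 named genes under the alternatives, 1063 kept direction and side of the threshold, 14 passed it with quality weights, 0 lost it and 9 changed sign. The sign changed for Il17ra (-0.02 without FF-503, -0.10 without FF-168, with 0.21 the highest), Fasn (0.13 without FF-523, 0.07 without FF-167, 0.02 without FF-169, with -0.50 the lowest), Cyp2e1 (0.27 without FF-581, with -0.97 the lowest), Lcn2 (0.11 without FF-167, 0.14 without FF-168, with -0.96 the lowest) and Igf2 (0.89 without FF-168, with -3.48 the lowest). The compared tumor groups share no animal, so no pairing applies to them; with the animal as a replicate block over all 28 libraries (consensus correlation 0.171), the interaction with non-tumor liver had 0 called genes and 931 at an unadjusted p below 0.05. Leaving out the tumor dHEP-549, which lay between the tissues and was chosen after seeing the data, left 107 higher and 559 lower genes at an unadjusted p below 0.05 in FF tumors and 807 genes in the interaction with non-tumor liver, with 0 called there and in the interaction with dHEP. Depth limits genes near 1 CPM.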
